A study of Mus musculus with 6 samples.

Results

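Mitochondria are renewed by removal and by new growth. Mitophagy is the removal arm, in which a worn mitochondrion is marked on its outer membrane, tied to LC3-type proteins and enclosed by an autophagosome. Biogenesis is the growth arm, in which the coactivator PGC-1 alpha works with DNA-binding factors to raise the transcription of nuclear genes for mitochondrial proteins, while TFAM packs and transcribes mitochondrial DNA. Both arms serve neurons, whose long processes depend on a steady supply of working mitochondria. The 10 genes described here are Pink1, Bnip3, Bnip3l, Fundc1, Sqstm1 and Optn of the mitophagy arm and Ppargc1a, Esrra, Nrf1 and Tfam of the biogenesis arm. They are defined by their gene symbols, a rule that uses no measured value, among the 16060 rows of an expression table of the mouse hippocampus. The symbols were chosen with earlier results of these data known. Each symbol stood on 1 row, and all 10 were among the 13321 rows tested.

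RNA came from the hippocampus of C57BL/6 mice, 3 labelled as saline controls (Control) and 3 labelled as treated with methamphetamine (MA), with 1 library for each animal. The study's methods describe adult males, with an MA dose that rose from 5 mg/kg in week 1 to 10 mg/kg in week 2 and 15 mg/kg in week 3, and with behavioral tests on day 22 just before the tissue was taken. The design implies 1 comparison, MA against Control, and it is made here for the transcript levels of these genes. Levels are given as log2 (RPKM + 1), where RPKM is the number of reads scaled by gene length and library size, so that levels of different genes can be set side by side. Differences are MA minus Control on the same scale, with the adjusted p of limma over all tested genes and a call at an adjusted p under 0.05. Read totals are not given with the values, so the depth of the libraries is unknown.

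Some properties of the libraries bear on every result. MA replicate 3 stood apart, with a mean Pearson correlation of 0.978 with the other MA libraries across tested genes. The other 5 libraries had 0.984 to 0.993 within their groups. Of the 16060 rows, 0 had a level of 0 in MA replicate 3, against 259 to 437 in the other 5 libraries. The reason was not tested. The differences of the 10 genes are thus also given without MA replicate 3. Hippocampal neuron markers were present in all libraries, with log2 levels from 3.26 to 3.67 for Prox1 and from 5.74 to 6.49 for Neurod6. The summed level of 7 choroid plexus markers was 65.6 to 420.6 RPKM in the Control libraries and 1776 to 5079 RPKM in the MA libraries. For 5 red blood cell genes the sum was 1599 to 2024 RPKM in Control and 3319 to 4378 RPKM in MA. The sum of 10 activity-induced early genes, among them Arc and Fos, lay between 286.6 and 403.2 RPKM in Control and between 107.0 and 122.1 RPKM in MA. All 10 early genes were lower in the libraries labelled MA, 6 of them called by limma, with a median difference of -1.39. The direction of every difference given here rests on the labels of the libraries, which were not checked independently. The paper reports Arc, Fos, Egr1 and Nr4a1 as upregulated by MA, both by RNA-seq and by qPCR of samples from each group. That is the reverse of their direction under these labels. The reason was not tested. In tissue RNA, fewer cells of a type and less RNA per cell cannot be told apart.

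None of the 10 genes passed the test between MA and Control. At an adjusted p under 0.05, 0 of 10 were called by limma, where 0.263% of all tested genes were, and 0 of 10 had an unadjusted p under 0.05, where 10.4% of all tested genes had. The groups overlapped for all 10 genes, while they did not overlap for 17.5% of all tested genes. The adjusted p ranged from 0.674 for Sqstm1 to 0.977 for Nrf1 (limma). Differences ran from -0.15 for Sqstm1 to 0.17 for Ppargc1a, and 8 of the 10 were above 0, with a median of 0.07. Over all tested genes the median difference was -0.010 and 47.3% of genes were above 0. The 95% confidence intervals are for single genes, are not adjusted for the number of genes and are not a limit of detection. With all 6 libraries, the lowest lower bound was a 0.751-fold level in MA, for Nrf1. The highest upper bound was a 1.511-fold level, for Ppargc1a. Both are on the scale of RPKM plus 1, which understates changes of low genes. Without MA replicate 3, the interval of Nrf1 reached down to -0.494 and that of Ppargc1a up to 0.648 on the log2 scale.

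**Figure D1:**
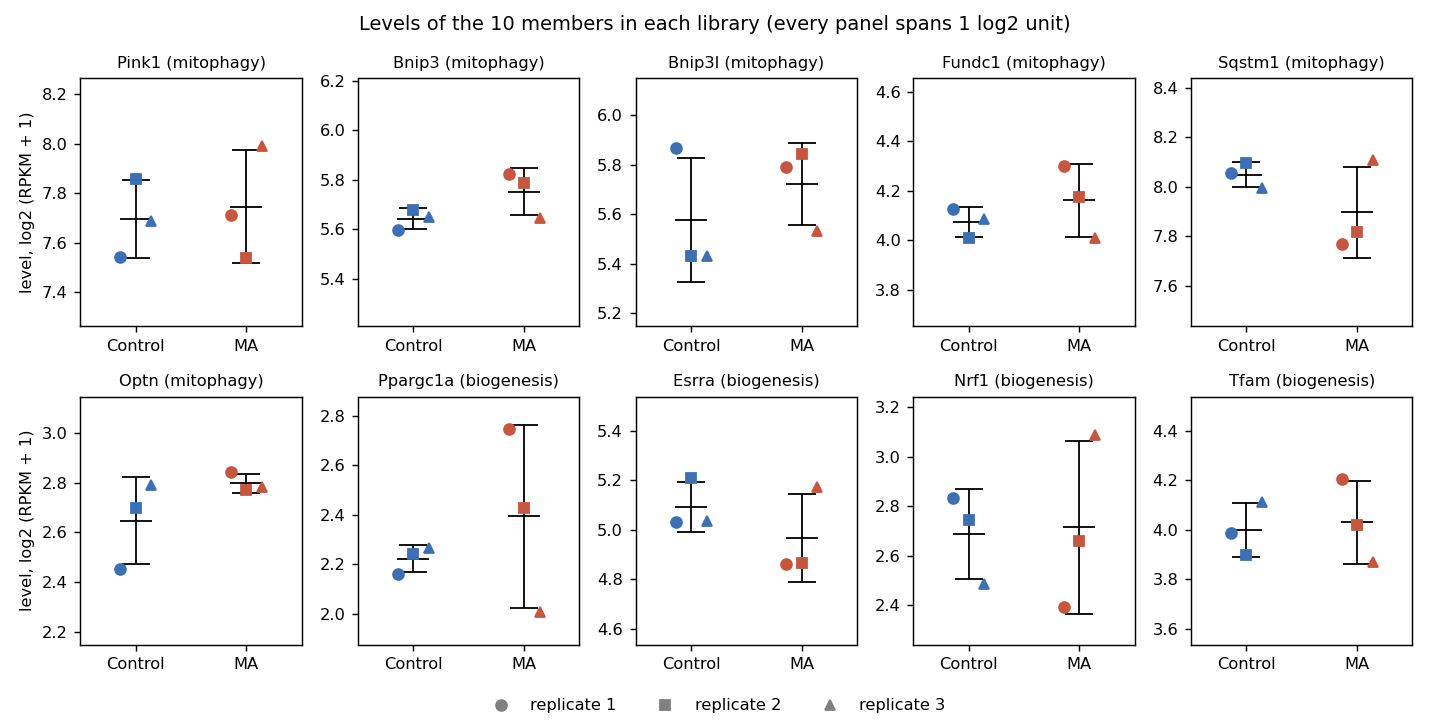
Log2 (RPKM + 1) of each of the 10 genes (vertical axis, 1 log2 unit in every panel) in the 3 Control and the 3 MA libraries (horizontal axis). Symbols mark the replicate number, and bars show the mean and the SD of 3 libraries. The groups overlap in all 10 panels, and MA replicate 3 (red triangle) lies away from the other MA libraries for Pink1, Sqstm1, Ppargc1a, Esrra and Nrf1.

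The 10 genes covered a wide range of levels. Sqstm1 was the highest, with a median of 260.0 RPKM over the 6 libraries, followed by Pink1 at 207.1 RPKM. They lay above 97.6% and 97.0% of the tested genes. Bnip3l (49.8 RPKM) and Bnip3 (49.75 RPKM) came next, then Esrra at 31.8 RPKM, Fundc1 at 16.2 RPKM and Tfam at 15.02 RPKM. Optn (5.86 RPKM), Nrf1 (5.51 RPKM) and Ppargc1a (3.77 RPKM) were the lowest, at 30.7% to 38.9% of the way up the tested genes. On the scale of levels per length, the ranges over 6 libraries overlapped between Sqstm1 and Pink1, between Bnip3 and Bnip3l, between Fundc1 and Tfam, and among Optn, Nrf1 and Ppargc1a. The order within each of these groups is thus not set apart from the spread between libraries, whereas the steps between the groups were larger than that spread. The order also depends on the gene lengths used for RPKM, which are not given. For Nrf1 the annotated exons cover 10282 bases, while the longest annotated transcript has 4042.

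Short stretches upstream of the RefSeq starts of 3 of the genes are shown. They hold the letters of sites known for factors of the biogenesis program or of the response to low oxygen. RefSeq promoter windows on GRCm38.p6, from 250 bases before to 50 after the annotated start, were matched for 9 of the 10 genes in 10 windows, and Bnip3l had no entry. Both strands were searched. The consensus site of NRF1, the factor that Nrf1 encodes, was in 2 of the 10 windows and in 4.6% of all 32851 windows. The hypoxia core ACGTGC was in 1 of the 10 and in 5.91% of all windows, and the ETS site CCGGAAG, bound by GABP (also named NRF-2), was in 1 of the 10 and in 8.86% of all. The ERR element TCAAGGTCA, the cAMP element TGACGTCA and the CLEAR element of TFEB had no match in the 10 windows and stood in 0.423%, 1.79% and 0.326% of all windows. In Bnip3 (chr7:138909593-138909641, minus strand, bases -135 to -87 from the start) the capitals mark an NRF1 site, matched on the other strand, and, 1 base further on, a hypoxia core read on both strands, whose matches overlap. In Pink1 (chr4:138326297-138326321, minus strand, bases -25 to -1) they mark an NRF1 site, and in Tfam (chr10:71238070-71238106, minus strand, bases -62 to -26) an ETS site. The gene coordinates given below are from GENCODE, whose starts differ from those of RefSeq. By them the Tfam stretch and the NRF1 site of Pink1 lie inside the gene, and the Bnip3 stretch lies upstream. These matches describe letters, not binding.
Bnip3: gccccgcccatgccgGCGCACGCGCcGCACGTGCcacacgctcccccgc
Pink1: cggggaccgccccccGCGCTTGCGC
Tfam: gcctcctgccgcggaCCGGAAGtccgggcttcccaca

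Pink1 (ENSMUSG00000028756, GRCm38 chromosome 4 from 138313409 to 138326307, minus strand, 8 exonic stretches) encodes the kinase that gathers on damaged mitochondria and phosphorylates ubiquitin and the ligase Parkin. Its log2 levels were 7.54, 7.86 and 7.69 in Control replicates 1, 2 and 3 and 7.71, 7.54 and 7.99 in MA replicates 1, 2 and 3. The MA libraries held both the highest and the lowest of the 6 values. The difference was 0.05 with a standard error of 0.13 (limma adjusted p = 0.937). Without MA replicate 3 it turned to -0.07, again not called (limma adjusted p = 0.711).

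The receptors Bnip3, Bnip3l and Fundc1 sit in the outer mitochondrial membrane and bind LC3-type proteins themselves, without ubiquitin. Bnip3 (ENSMUSG00000078566, chromosome 7 from 138890836 to 138909519, minus strand, 6 exonic stretches), which is induced by low oxygen, had log2 levels of 5.6, 5.68 and 5.65 in Control and 5.82, 5.79 and 5.65 in MA. MA replicates 1 and 2 were above all Control libraries, and MA replicate 3 was within the Control range. The difference was 0.11 with a standard error of 0.08 (limma adjusted p = 0.698), with a 95% confidence interval from -0.08 to 0.30, and it was 0.16 (limma adjusted p = 0.182) without MA replicate 3. Annotated exons of the antisense gene Gm45507 cover 504 exonic bases of Bnip3, and whether reads were counted by strand is not given in the sources used here, so its level may include that gene.

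Bnip3l (ENSMUSG00000022051, chromosome 14 from 66985239 to 67008877, minus strand), also named NIX and known for clearing mitochondria from maturing red blood cells, had log2 levels of 5.87, 5.43 and 5.43 in Control and 5.79, 5.84 and 5.53 in MA. Control replicate 1 held the highest of the 6 values, so the groups overlapped through 1 Control library. The difference was 0.15 with a standard error of 0.14 (limma adjusted p = 0.788), and it was 0.29 without Control replicate 1 and 0.24 without MA replicate 3, not called in either fit (limma adjusted p = 0.790 and 0.350). The summed red blood cell genes were 1599, 2024 and 1911 RPKM in Control and 4378, 3319 and 3849 RPKM in MA, with 3 of 5 called higher, and their part in the Bnip3l levels was not tested. Reads may also be split with the pseudogene Bnip3l-ps.

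Fundc1 (ENSMUSG00000025040, chromosome X from 17556564 to 17572325, minus strand), a receptor that acts in low oxygen, had log2 levels of 4.13, 4.01 and 4.09 in Control and 4.30, 4.17 and 4.01 in MA. It had the same arrangement as Bnip3, with MA replicates 1 and 2 above the Control range and MA replicate 3 inside it. Its difference was 0.09 with a standard error of 0.10 (limma adjusted p = 0.824). It was 0.16 without MA replicate 3 and 0.02 without MA replicate 1, not called in either fit (limma adjusted p = 0.273 and 0.973).

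Sqstm1 and Optn encode adaptors that hold ubiquitin on the cargo with one domain and LC3-type proteins with another. Sqstm1 (ENSMUSG00000015837, chromosome 11 from 50199366 to 50210827, minus strand, 8 exonic stretches), also named p62, had log2 levels of 8.06, 8.09 and 8.0 in Control and 7.77, 7.82 and 8.11 in MA. Of these, MA replicates 1 and 2 were the 2 lowest values and MA replicate 3 was the highest. The difference was -0.15 with a standard error of 0.10 (limma adjusted p = 0.674). Without MA replicate 3 it was -0.26 (standard error 0.06, limma adjusted p = 0.0769), the smallest adjusted p of the 10 genes in that fit. Sqstm1 shares 580 exonic bases with Mrnip on the other strand, so with unstranded counting reads of the pair cannot be told apart.

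Optn (ENSMUSG00000026672, chromosome 2 from 5020642 to 5064051, minus strand, 16 exonic stretches) encodes optineurin, which the kinase TBK1 activates on damaged mitochondria. Its log2 levels were 2.45, 2.70 and 2.79 in Control and 2.84, 2.77 and 2.78 in MA. The MA libraries lay close together, with an SD of 0.04, and the spread came from the Control libraries, with an SD of 0.18. The difference was 0.15 with a standard error of 0.11 (limma adjusted p = 0.706), and it was 0.05 without Control replicate 1 and 0.16 without MA replicate 3 (limma adjusted p = 0.980 and 0.464). Optn shares 73 exonic bases with the antisense gene 4930551O13Rik.

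Ppargc1a (ENSMUSG00000029167, chromosome 5 from 51454250 to 51567726, minus strand, 14 exonic stretches) encodes PGC-1 alpha, the coactivator at the head of the biogenesis program. Its log2 levels were 2.16, 2.24 and 2.27 in Control and 2.75, 2.43 and 2.01 in MA. Among the 6 libraries, MA replicates 1 and 2 were the highest and MA replicate 3 the lowest, and the MA SD of 0.37 stood against a Control SD of 0.06. The difference was 0.17 with a standard error of 0.18 (limma adjusted p = 0.805), the largest of the 10 in size. It was 0.36 (standard error 0.12, limma adjusted p = 0.140) without MA replicate 3 and fell to -0.004 without MA replicate 1. Summed markers of the thalamus, which borders the hippocampus, took a like course over the libraries, with 23.3, 18.6 and 24.99 RPKM in Control and 44.5, 53.5 and 16.6 RPKM in MA, for a list of 5 genes of which 0 were called. The sum of 5 neuron markers took such a course too, with 1766, 1723 and 1876 RPKM in Control and 1902, 1929 and 1472 RPKM in MA. So did that of 6 excitatory neuron markers, with 1427, 1329 and 1407 RPKM in Control and 1482, 1668 and 1149 RPKM in MA. The part of these markers in the Ppargc1a levels was not tested.

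Esrra, Nrf1 and Tfam act beside or below PGC-1 alpha. Esrra (ENSMUSG00000024955, chromosome 19 from 6910977 to 6921813, minus strand), the gene of the nuclear receptor ERR alpha, had log2 levels of 5.03, 5.21 and 5.04 in Control and 4.86, 4.87 and 5.17 in MA. As for Sqstm1, MA replicates 1 and 2 were the lowest libraries, and MA replicate 3 lay within the Control range. The difference was -0.12 with a standard error of 0.11 (limma adjusted p = 0.753), or -0.23 (standard error 0.08, limma adjusted p = 0.157) without MA replicate 3. Esrra shares 73 exonic bases with Trmt112 on the other strand.

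Nrf1 (ENSMUSG00000058440, chromosome 6 from 30047988 to 30153458, plus strand, 17 exonic stretches) encodes nuclear respiratory factor 1 and is not Nfe2l1, for which the same short name is also used. Its log2 levels were 2.83, 2.74 and 2.49 in Control and 2.39, 2.66 and 3.09 in MA. The highest and the lowest value both belonged to MA libraries, replicates 3 and 1. The difference was 0.03 with a standard error of 0.19, the largest standard error of the 10 (limma adjusted p = 0.977), and it was -0.16 without MA replicate 3 (limma adjusted p = 0.524).

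Tfam (ENSMUSG00000003923, chromosome 10 from 71225464 to 71238280, minus strand) had log2 levels of 3.99, 3.90 and 4.11 in Control and 4.20, 4.02 and 3.87 in MA. The MA libraries again spanned the Control range, from replicate 1 above it to replicate 3 below it. The difference was 0.03 with a standard error of 0.11 (limma adjusted p = 0.952), and its sign turned without Control replicate 2 or MA replicate 1, with -0.02 and -0.06. It was 0.11 (limma adjusted p = 0.532) without MA replicate 3. An exact permutation test of 3 libraries against 3, two-sided, gave p-values from 0.3 to 1.0 for the 10 genes, and the smallest p that 3 against 3 can give is 0.1.

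**Figure D2:**
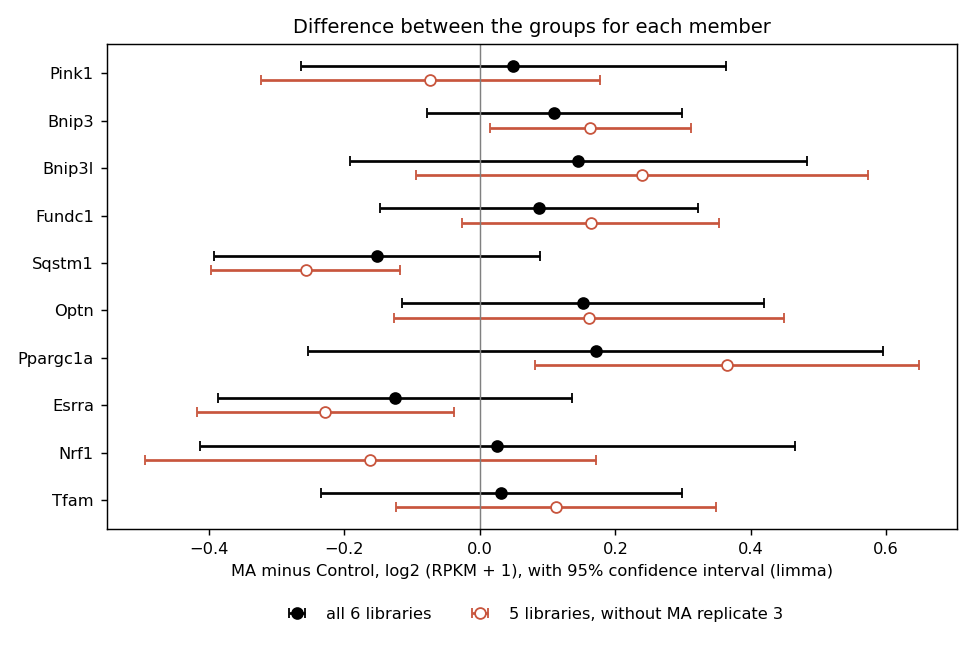
MA minus Control on the log2 (RPKM + 1) scale (horizontal axis) for each of the 10 genes (vertical axis), with 95% confidence intervals from limma. Filled points use all 6 libraries, and all 10 intervals cross 0. Open points leave out MA replicate 3, and the intervals of Bnip3, Sqstm1, Ppargc1a and Esrra then lie on 1 side of 0, with 0 of 10 genes called after adjustment.

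MA replicate 3 often lay away from the other MA libraries. It was the highest or the lowest of the 6 libraries for 5 of the 10 genes, and for 55.4% of all tested genes. For 8 of the 10, its deviation from the Control mean had the opposite sign to that of the mean of MA replicates 1 and 2, with Bnip3 and Optn as the exceptions. Over all tested genes this was so for 49.1%. The MA SD was larger than the Control SD for 8 of the 10 genes and for 71.1% of all tested genes, and the median MA SD was 0.17 for the 10 and for all tested genes alike. Without MA replicate 3, 0 of 10 genes were called, where 1.93% of all tested genes were. An unadjusted p under 0.05 was reached by 4 of the 10, Sqstm1, Ppargc1a, Esrra and Bnip3, against 23.3% of all tested genes. Groups did not overlap for 5 of the 10, those 4 and Fundc1, against 42.9% of all tested genes in these 5 libraries.

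The deviation of MA replicate 3 went weakly with the base composition of the transcripts. Its correlation with GC content across 13302 tested genes was 0.289, and with log2 exonic length it was -0.307. The other libraries had correlations with GC content between -0.150 and 0.046. With length theirs ran from -0.119 to 0.183, with 0.173 in MA replicate 1 and 0.183 in MA replicate 2. Deviations are from the mean of the 6 libraries, so those of different libraries are not independent. All of these are correlations across genes, which are not independent replicates. With the genes cut into 4 equal groups by GC content, in the group with the lowest (31.0% to 45.2%) the median difference of MA replicate 3 from the mean of MA replicates 1 and 2 was -0.12, and in the group with the highest (54.8% to 72.8%) it was 0.13. Ppargc1a, with a GC content of 41.7%, had a difference of -0.58, Bnip3l (41.9%) of -0.28, Tfam (44.9%) of -0.24, Fundc1 (38.8%) of -0.23 and Bnip3 (41.6%) of -0.16. Pink1, the richest in GC at 59.0%, had a difference of 0.37, and Sqstm1 (54.0%) of 0.32. Nrf1 did not follow this order, with a GC content of 45.4% and a difference of 0.56. Esrra (50.3%) and Optn (50.7%) lay close in GC content, with differences of 0.31 and -0.03.

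After a lowess correction for GC content and exonic length, added once the data had been seen, the difference of MA replicate 3 from the other MA libraries became 0.16 for Pink1, -0.40 for Ppargc1a, -0.13 for Tfam and -0.17 for Bnip3l. For Bnip3 (-0.14), Fundc1 (-0.20) and Optn (-0.03) it moved little. It was 0.22 for Sqstm1, and it grew to 0.34 for Esrra and to 0.78 for Nrf1. Under this correction 0 of 10 genes were called. Marker sums of MA replicate 3 stood apart as well. Its choroid plexus sum was 5079 RPKM, against 1776 and 2308 RPKM in the other MA libraries. The sum of 5 neuron markers was 1472 RPKM there and 1723 to 1929 RPKM in the other libraries, and that of 6 astrocyte markers was 733.8 RPKM against 787.8 to 931.8 RPKM, with their part in the 10 genes' levels not tested.

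**Figure D3:**
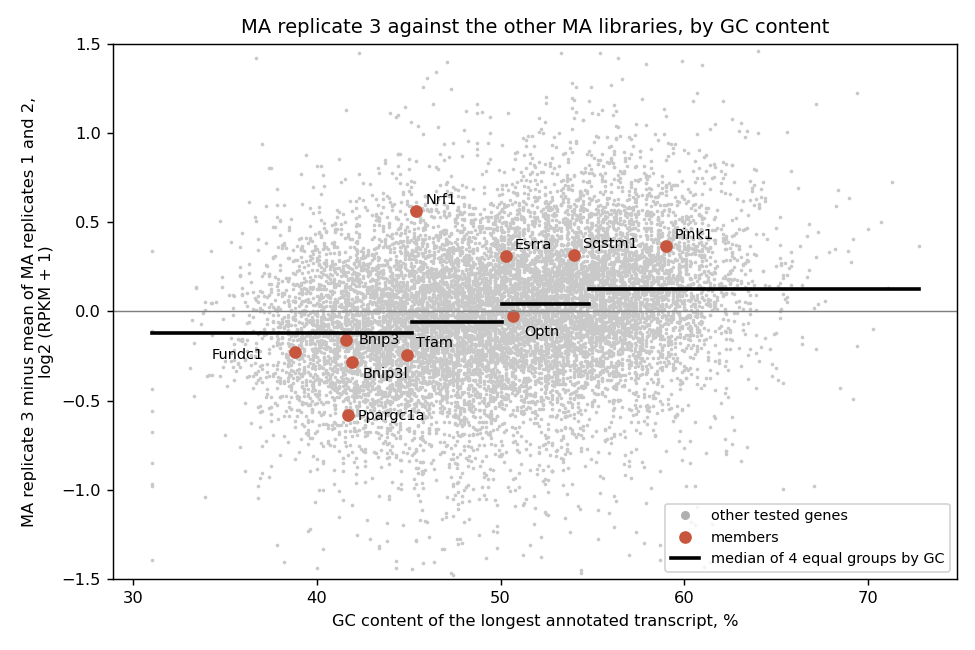
Difference of MA replicate 3 from the mean of MA replicates 1 and 2 on the log2 (RPKM + 1) scale (vertical axis) against the GC content of the longest annotated transcript in percent (horizontal axis), for 13302 tested genes (grey) and the 10 genes named (red). Black bars are medians of 4 equal groups of genes by GC content and run from -0.12 to 0.13. The axis ends at 1.5 in both directions and leaves out 45 genes.

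The wider machinery was read from lists of genes written from general knowledge, without the 10, and with earlier results of these data known. In all, 206 listed genes were tested, 102 higher and 104 lower in MA, with a median difference of -0.003. None was called by limma with all 6 libraries weighted equally. With sample quality weights, limma called 586 of all 13321 tested genes. Within the lists it called 1 of 19 further receptors and adaptors, 2 of 26 autophagosome genes and 3 of 27 targets of PGC-1 alpha and ERR alpha. It also called 3 of 21 HIF-1 targets and 4 of 17 genes of the TFEB list, and no gene of the other lists. List medians lay between -0.10 and 0.12 without MA replicate 3. An unadjusted p under 0.05 was reached by 20, or 9.71%, and groups did not overlap for 39, or 18.9%, both close to the 10.4% and 17.5% of all tested genes. For the listed genes named here, limma adjusted p-values with all 6 libraries weighted equally were above 0.05, so their values are given without a call.

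Of 23 tested genes of the PINK1 and Parkin arm, 12 were higher and 11 lower, with a median of 0.01. Usp30, a deubiquitinase that opposes Parkin, had log2 levels of 3.22 to 3.30 in Control and 3.32 to 3.49 in MA, a difference of 0.14. Htra2, a protease between the mitochondrial membranes, was 0.27 higher with groups that did not overlap (limma adjusted p = 0.348). Tbc1d15, which restrains autophagosome growth around mitochondria, had a difference of -0.19. Among 19 further receptors and adaptors, 11 were higher and the median was 0.02, with Calcoco1 at 0.10. Bcl2l13, an outer membrane receptor picked out after its values were seen, had a difference of 0.40 (limma adjusted p = 0.655), or 0.73 (limma adjusted p = 0.0274) without MA replicate 3.

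For autophagosome formation, 11 of 26 tested genes were higher and 15 lower, with a median of -0.03. Ulk1, the kinase that starts the process, and Gabarapl2, an LC3-type protein, had differences of 0.18 each. Rb1cc1, which encodes the ULK1 partner FIP200, had log2 levels of 4.95 to 5.09 in Control and 4.66 to 4.85 in MA (difference -0.27, limma adjusted p = 0.350). Atg12, part of the conjugation system, had a difference of -0.21. Groups did not overlap for 6 of the 26, 2 higher and 4 lower, where they did not overlap for 17.5% of all tested genes. The median turned to 0.01 without MA replicate 3.

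On the biogenesis side, 14 of 34 tested regulators were higher and 20 lower, with a median of -0.02, and groups did not overlap for 5 of the 34, all lower in MA, no larger a share than the 17.5% of all tested genes. Creb1, which drives Ppargc1a transcription after cAMP signals, had log2 levels of 2.78, 2.69 and 2.99 in Control and 2.58, 2.29 and 2.26 in MA. All MA libraries were below all Control libraries, and the difference of -0.44 was not called (limma adjusted p = 0.323). Gabpa, the DNA-binding subunit of GABP, had log2 levels of 2.82, 2.65 and 2.78 in Control and 2.46, 2.47 and 2.28 in MA, a difference of -0.34 (limma adjusted p = 0.329). Of 27 genes for copying and transcribing mitochondrial DNA, 10 were higher and 17 lower, with a median of -0.02, or -0.10 without MA replicate 3. Mgme1, a nuclease of mitochondrial DNA, had a difference of -0.36 (limma adjusted p = 0.402), Mterf2 of -0.21 and Lrpprc, which stabilizes mitochondrial messenger RNA, of 0.13.

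Genes known as targets of PGC-1 alpha and ERR alpha were higher in 19 of 27 cases, with a median of 0.07, or 0.12 without MA replicate 3. Ucp2, an inner membrane carrier, had log2 levels of 4.51, 4.50 and 4.65 in Control and 5.25, 5.40 and 4.80 in MA. Its groups did not overlap, with MA replicate 3 nearest to Control. The difference was 0.60 (limma adjusted p = 0.252), or 0.77 (limma adjusted p = 0.0248) without MA replicate 3. Mfn1, an outer membrane fusion protein, had a difference of 0.34, or 0.45 (limma adjusted p = 0.0453) without that library. Cox5b, a subunit of cytochrome oxidase, had a difference of -0.25 and Cycs, which encodes cytochrome c, of -0.11.

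Targets of the factors that act on single members were also measured. Of 21 targets known for HIF-1, which induces Bnip3 under low oxygen, 12 were higher and 9 lower, with a median of 0.04, and groups did not overlap for 3 of the 21, all lower in MA, no larger a share than the 17.5% of all tested genes. P4ha1, a collagen prolyl hydroxylase subunit, had log2 levels of 5.0, 4.61 and 4.77 in Control and 3.94, 4.17 and 4.04 in MA, a difference of -0.74 (limma adjusted p = 0.0785). P4ha2 had a difference of -0.52 (limma adjusted p = 0.252). Without MA replicate 3 both were called, P4ha1 at -0.74 and P4ha2 at -0.63 (limma adjusted p = 0.0498 and 0.0443). Bnip3 itself had a difference of 0.11, above 0 as for 12 of the 21 targets, and the part of HIF-1 in its level was not tested.

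NRF2, which induces Sqstm1, is here the product of Nfe2l2 and not GABP. Of 13 targets known for NRF2, 8 were higher and the median was 0.06, which turned to -0.008 without MA replicate 2. Srxn1, which restores oxidized peroxiredoxins, and Gsta4, a glutathione transferase, had differences of 0.28 and 0.21, and Txnrd1, a thioredoxin reductase, of -0.20. For TFEB, which governs lysosomal genes and Sqstm1, and its targets, 6 of 17 were higher and the median was -0.02, or 0.01 without MA replicate 1. Mcoln1, a lysosomal calcium channel, had log2 levels of 5.08 to 5.23 in Control and 5.43 to 5.55 in MA, a difference of 0.36 (limma adjusted p = 0.209). Lamp2, a lysosomal membrane protein, had a difference of 0.34, Gla, a lysosomal galactosidase, of -0.27 and Atp6v0d1, a proton pump subunit, of -0.06. The summed level of the NRF2 targets was 338.8 to 367.3 RPKM in Control and 372.7 to 391.2 RPKM in MA, without overlap, whereas the sums of TFEB and its targets overlapped (735.5 to 749.9 RPKM and 747.6 to 778.1 RPKM). No test was run on these sums. Without MA replicate 3, 5 of the 206 listed genes were called, or 2.43% against 1.93% of all tested genes, namely Bcl2l13, Ucp2, Mfn1, P4ha1 and P4ha2.

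**Figure D4:**
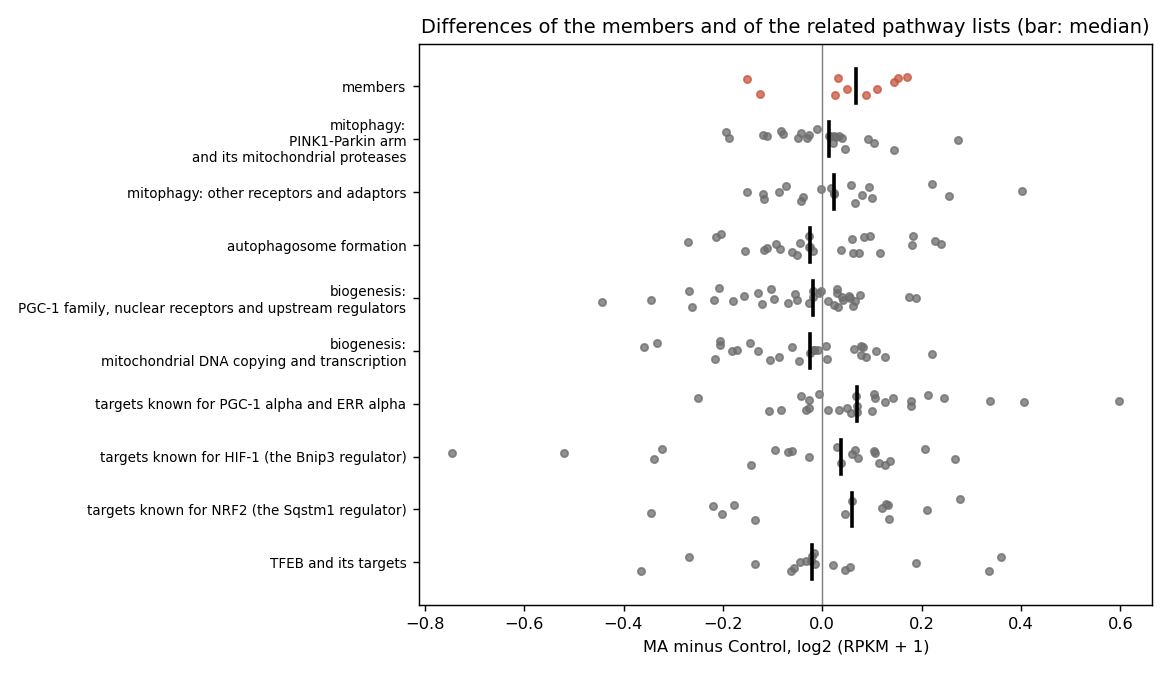
MA minus Control on the log2 (RPKM + 1) scale (horizontal axis) for the 10 genes (red) and for the tested genes of 9 related lists (grey), with 1 point per gene and bars at the medians. The medians lie between -0.03 and 0.07, and P4ha1 at -0.74 and Ucp2 at 0.60 are the outermost points.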

How the data were processed

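Hippocampal RNA of 3 Control and 3 MA mice was measured by RNA-seq. Per the study's methods, the authors used Hisat2 for alignment and featureCounts for counting, and then derived FPKM, whereas the submitters' processing notes name Bowtie 0.12.2 and the builds mm8 and mm9. The deposited values are log2 values of a quantity named RPKM, with an offset read as 1. Base 2 was inferred, since the sum of back-transformed values times exonic length was 1.78 to 1.88 times the total that the definition of RPKM sets with it, and 18.2 to 19.6 times that total with base e. All 6 libraries shared their highest value, so a normalization between them had been applied that the methods do not describe. Read totals are not given. The intervals rest on the spread between libraries, with 1 library for each mouse, so the sources of that spread cannot be told apart.

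Genes with at least 0.5 RPKM in at least 3 libraries were tested with limma 3.58.1 in R 4.3.3 (lmFit, eBayes with trend), with no covariate and Benjamini-Hochberg adjustment over 13321 rows, called genes here although the table's 16060 rows hold 16031 distinct IDs. DESeq2, used by the authors, needs counts and was not used. The script was tested on simulated data. The members and lists were chosen with earlier results of these data known. Named genes were all 10 members and, from each list, genes called and up to 2 in each direction with the smallest p among those whose groups did not overlap. Coordinates, lengths and GC content are from GENCODE M21 on GRCm38, for location only. Alternatives were median centring, quantile normalization, a pseudocount of 0.1 or 0.01, no filter, a minimum mean of 5 RPKM, eBayes without trend, sample quality weights, the replicate number as a block, leaving out each library, and a lowess correction for GC content and length.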

Additional observations from a re-analysis of the deposited data

How the results depend on the processing

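None of the 10 genes was called under any of 17 alternatives, and the smallest limma adjusted p was 0.0740, for Sqstm1 with sample quality weights. The sign held under all alternatives for Bnip3, Bnip3l, Fundc1, Sqstm1, Optn and Esrra. It turned with sample quality weights for Nrf1 (-0.0788) and Pink1 (-0.121). With 1 library left out, the difference ran from -0.16 to 0.186 for Nrf1 (below 0 without Control replicate 3, -0.0754, or MA replicate 3), from -0.0729 to 0.154 for Pink1 (below 0 without Control replicate 1, -0.0277, or MA replicate 3), from -0.0043 to 0.364 for Ppargc1a (below 0 without MA replicate 1) and from -0.0558 to 0.113 for Tfam (below 0 without Control replicate 2, -0.0198, or MA replicate 1). Medians of the 9 related lists moved beyond the spread between replicates in 14 of 153 alternatives, with the NRF2 median at 0.121 for a minimum mean of 5 RPKM and the autophagosome median above 0 once MA replicate 2 (0.0198), MA replicate 3 (0.0135) or Control replicate 3 (0.0128) was left out. Ppargc1a fell under the minimum mean of 5 RPKM and has no value there. The count of called genes over the whole table, 35, moved to 3 with no filter, 20 with a minimum mean of 5 RPKM, 586 with sample quality weights and 0 to 257 with 1 library left out (257 without MA replicate 3, 15 without MA replicate 1, 3 without Control replicate 1 and 0 without each of the others). With the replicate number as a block it was 15, and 7 with the GC and length correction and the block. Same-numbered libraries deviated from their group means with correlations of -0.197, -0.242 and -0.337. These values gave no sign that the numbers pair the mice but cannot exclude it, and the block called 0 of the 10 genes. The cause of these shifts was not tested. With unknown depth and 3 mice a group, differences inside the confidence intervals are not excluded. The intervals are not adjusted for the number of genes and are not a limit of detection.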
